A study of Arabidopsis thaliana with 12 samples.

Results

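Roots inoculated with Azospirillum brasilense, with either of 2 strains, were compared with saline-treated roots 7 d after treatment, with the strains pooled. The comparison took every column of the deposited count table that named the 7 d time point, which gave 6 of the 12 libraries of the series: 4 from inoculated roots (2 per strain) and 2 from saline roots. All plants were wild-type Arabidopsis thaliana Col. seedlings on vertical MS agar plates with 1% sucrose and 0.8% agar, kept at 22 °C with 16 h of light and 8 h of dark. Seedlings 4 days from planting received 2 uL of a bacterial suspension at an OD595 of 1 in 0.9% sterile saline, either the Az39 strain or its ipdc mutant, and control seedlings received 2 uL of the 0.9% saline. Whole roots were pooled from at least 50 root systems per biological replicate, and RNA was sequenced as 150 bp single-end reads. The ipdC gene encodes indole-3-pyruvate decarboxylase, with which the bacterium makes auxin, and how much auxin the mutant still made is not given in the sources used here. The other 6 libraries, from roots treated in the same ways and taken at 24 h, entered the same model and shared its estimate of the spread.

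Azospirillum brasilense is a soil bacterium that lives on root surfaces, fixes nitrogen, makes auxin and is used to inoculate cereals. Plants sense bacteria at the root through receptor kinases and through damage signals such as the Pep peptides, which are cut from PROPEP precursors and perceived by PEPR receptors. Jasmonate is made from plastid lipids through lipoxygenases, allene oxide synthase, allene oxide cyclases and the reductase OPR3, and its isoleucine conjugate triggers destruction of the JAZ repressors. JAZ genes are themselves switched on by the MYC factors that JAZ proteins hold back, and their transcripts are commonly read as a sign of jasmonate signalling.

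The table held read counts for 21200 genes, of which 18867 had enough reads to test. Library totals at 7 d were 18773891 and 19330423 counts for saline, 17212991 and 16708899 for Az39, and 15424136 and 14141640 for ipdc. Across genes, the rank correlation between the replicates was 0.980 for saline, 0.969 for Az39 and 0.984 for ipdc. All 14 root cell type markers were detected in every library of 7 d. Transcripts of 28 photosynthesis genes, markers of shoot tissue, made up 0.126% and 0.166% of counts with saline and 0.107% to 0.347% in the inoculated libraries. Transcripts of 12 seed storage genes made up 0.0743% and 0.00382% with saline and 0.00710% to 0.0540% in the inoculated libraries. No gene of either list passed the test, none was at 0 in any library of 7 d, and their part in the results was not tested. At 24 h, ipdc replicate 1 held 4.89% seed storage transcripts and ipdc replicate 2 held 2.31% photosynthesis transcripts, which set these libraries apart from the other 24 h libraries.

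With the strains pooled, inoculation changed 329 of the 18867 genes tested (1.74%) at an adjusted p under 0.05, 161 higher (0.853%) and 168 lower (0.89%), by edgeR's quasi-likelihood test with Benjamini-Hochberg adjustment. Against saline, the Az39 libraries alone gave 696 called genes and the ipdc libraries alone 3. Of the pooled calls, 156 of the 161 higher and 134 of the 168 lower were called with Az39 alone, and 2 and 1 with ipdc alone. Genes of jasmonate synthesis and signalling, of the Pep peptide system (precursors and the receptor PEPR1), and of tryptophan synthesis were among those that rose. Transporters of ammonium, nitrate, phosphate, metals and water, and genes of cytokinin synthesis, were among those that fell. The rises were the larger changes: the median log2 fold change was 1.63 among the 161 genes that rose and the largest was 4.96, or 31.1-fold, while the 168 that fell changed by a median of 1.15 on the log2 scale and by at most 3.04. A rise of at least 4-fold was found for 58 genes and a fall of at least 4-fold for 9. Counts of list or family members that rose or fell can be read against the shares of all genes, 0.853% and 0.89%. Changes below are log2 fold changes ± standard error unless another unit is named, with adjusted p from the same edgeR test.

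All 329 genes had the same direction against saline with each strain, and 141 of the 161 and 155 of the 168 passed 1.5-fold with both strains. The Az39 change was the larger for 150 of the 161 genes that rose and for 126 of the 168 that fell. Median sizes for the genes that rose were 2.05 with Az39 and 1.2 with ipdc on the log2 scale, and for those that fell 1.29 and 1.04. The strains shared the saline libraries, so these are values side by side and not separate evidence. All 4 inoculated libraries lay above both saline libraries for 160 of the 161 genes, the exception being HVA22D, and below them for 168 of the 168. Across all genes tested, 17.8% lay wholly above and 15.3% wholly below saline. The called genes were picked by the test on these same libraries, so their separation follows largely from that choice and is not further evidence.

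**Figure D1:**
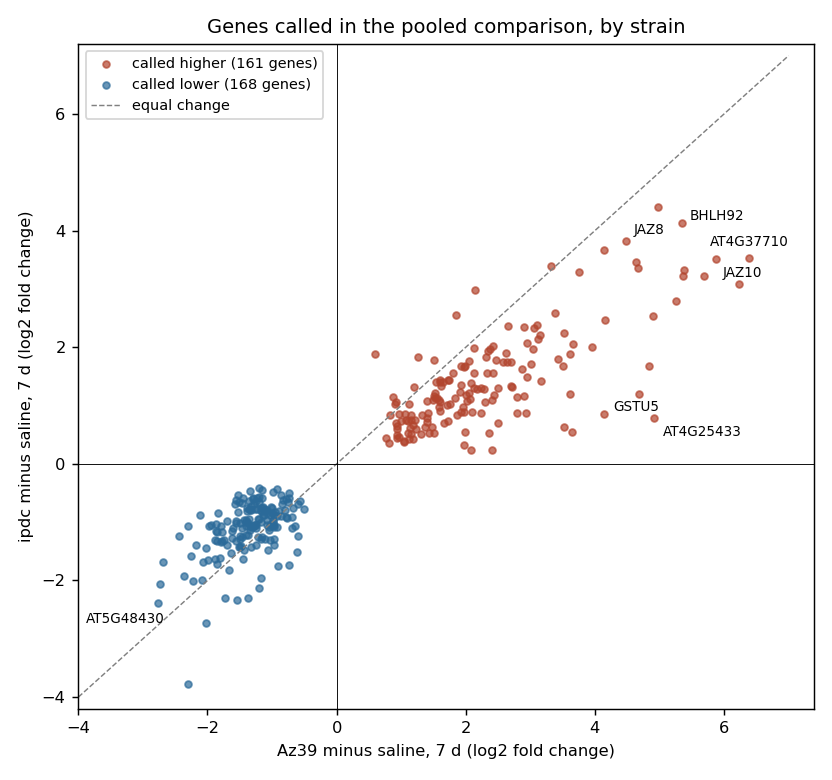
Log2 fold change against saline at 7 d with Az39 (horizontal axis) and with the ipdc mutant (vertical axis), 1 point for each of the 161 genes that rose and the 168 that fell. The points lie in the quadrants where both strains moved the same way, and most of those that rose lie on the Az39 side of the diagonal.

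The number of genes called depended on single libraries. Without saline replicate 1 it was 144 and without saline replicate 2 it was 0, with 2052 genes at an unadjusted p under 0.05. It was 191 without Az39 replicate 1, 11 without ipdc replicate 1 and 64 without ipdc replicate 2. The 24 h libraries, which entered the same model, mattered too. Fewer genes were called without either Az39 replicate of 24 h, and more without either ipdc replicate of 24 h. Which step of the fit moved the number was not tested. All 329 genes kept their direction whichever library of 7 d was left out. They were picked by the test on these same libraries, so this is not a separate check. The 11 genes that kept an adjusted p under 0.05 without any of the other 5 libraries of 7 d, and lost it without saline replicate 2, were AT4G37710, GSTU5, GSTU6, PROPEP4, ALMT1, RSH2, AT3G62010, MES5, ASB1 and AT5G20190, which rose, and AT5G48430, which fell. RSH2 and AT5G20190 were named here after their values were seen. Of the 161 genes that rose, 132 were higher in saline replicate 1 than in saline replicate 2, so that for them replicate 1 lay nearer to the inoculated libraries.

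**Figure D2:**
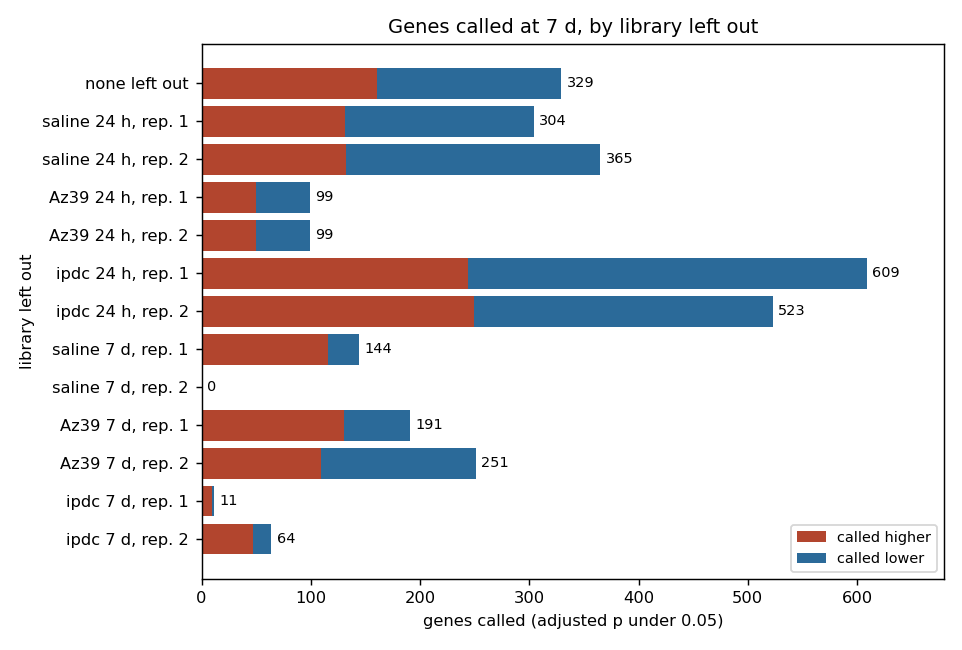
Number of genes that rose and that fell (adjusted p below 0.05) with all libraries and with each library left out in turn. The count was 329 with all libraries, 0 without saline replicate 2 and 11 without ipdc replicate 1 of 7 d.

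Jasmonate genes that passed the test all rose. Of 19 signalling genes tested, 5 rose and 0 fell, of 14 synthesis genes 2 rose and 0 fell, and of 16 genes of turnover and output 2 rose and 0 fell, against 0.853% of all genes. Their median log2 fold changes were 0.92, 1.82 and 1.61, and that of all genes tested was 0.04. Leaving out saline replicate 1 raised these medians to 1.64, 2.39 and 2.38, and leaving out saline replicate 2 lowered them to 0.84, 1.29 and 1.05. The signalling genes together took 0.170% and 0.0935% of counts in the saline libraries, 0.295% and 0.462% in the Az39 and 0.337% and 0.249% in the ipdc libraries.

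JAZ10, a repressor that limits jasmonate signalling, stood at 6.97 and 1.92 CPM in the saline libraries, 193 and 326 in the Az39 and 65.3 and 36 in the ipdc libraries. The inoculated libraries lay above both saline libraries, and both Az39 libraries lay above both ipdc libraries. The change was 4.69 ± 0.58 (adjusted p = 0.0129), with 5.87 ± 0.64 for Az39 and 3.51 ± 0.58 for ipdc. Leaving out saline replicate 1 moved it to 5.89 and leaving out replicate 2 to 4.04. JAZ8, a repressor that lacks a full degron and is therefore more stable, was at 6.77 and 1.13 CPM in the saline libraries, 41.5 and 135 in the Az39 and 64.7 and 46.7 in the ipdc libraries, a change of 4.15 ± 0.72 (adjusted p = 0.0312). Levels of JAZ2 were 122 and 43.5 CPM in the saline libraries, 584 and 792 in the Az39 and 519 and 316 in the ipdc libraries, 2.7 ± 0.41 higher (adjusted p = 0.0232). For JAZ9 the change was 2.59 ± 0.38 (adjusted p = 0.02). AT3G22275, annotated as a further jasmonate ZIM-domain protein, rose by 4.02 ± 0.70 (adjusted p = 0.0312). JAM1, a bHLH factor that represses jasmonate responses and the other signalling gene that rose, changed by 2.24 ± 0.42 (adjusted p = 0.0372). MYC2, which switches these genes on, was at 396 and 170.0 CPM in the saline libraries, 487 and 516 in the Az39 and 635 and 489.7 in the ipdc libraries, and its change of 0.91 ± 0.48 did not pass the test (adjusted p = 0.322). Neither did those of JAZ1, with a change of 1.39 ± 0.52 (adjusted p = 0.178), of JAZ7, with a change of 3.69 ± 0.79 (adjusted p = 0.0506), and of JAZ4, with a change of -1.05 ± 0.44 (adjusted p = 0.226).

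In synthesis, OPR3, which reduces the cyclic precursor OPDA in the peroxisome, was at 63.0 and 29.3 CPM in the saline libraries, 305 and 455 in the Az39 and 228 and 133 in the ipdc libraries. The groups did not overlap, and the change was 2.5 ± 0.37 (adjusted p = 0.0219). AOC1, an allene oxide cyclase, was at 0.258 and 0.246 CPM in the saline libraries, 14.6 and 12.3 in the Az39 and 2.00 and 2.81 in the ipdc libraries, 4.45 ± 0.81 higher (adjusted p = 0.0338). Both Az39 libraries stood above both ipdc libraries, and these above saline. AOC1 has close copies, AOC2 to AOC4, among which reads may be split, and AOC2 and AOC3 had changes of 2.46 ± 1.03 and 1.8 ± 0.46 that did not pass the test (adjusted p = 0.225 and adjusted p = 0.0792). The lipoxygenases LOX3 and LOX4 missed the threshold with changes of 3.19 ± 0.84 (adjusted p = 0.0825) and 3.52 ± 0.86 (adjusted p = 0.069). Downstream, TAT3, a tyrosine aminotransferase known as a jasmonate and wound marker, was at 2.27 and 0.344 CPM in the saline libraries, 83.6 and 113 in the Az39 and 16.3 and 5.89 in the ipdc libraries, 4.66 ± 0.67 higher (adjusted p = 0.0193). ILL6, an amidohydrolase that takes apart jasmonate conjugates, was at 7.80 and 4.38 CPM in the saline libraries, 43.1 and 66.2 in the Az39 and 19.8 and 12.7 in the ipdc libraries and changed by 2.29 ± 0.33 (adjusted p = 0.0193). VSP2, a storage protein of the MYC branch in leaves, was at 156 and 199 CPM in the saline libraries, 240.3 and 280.2 in the Az39 and 133 and 162 in the ipdc libraries, with a change of 0.14 ± 0.25 that did not pass the test (adjusted p = 0.784).

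**Figure D3:**
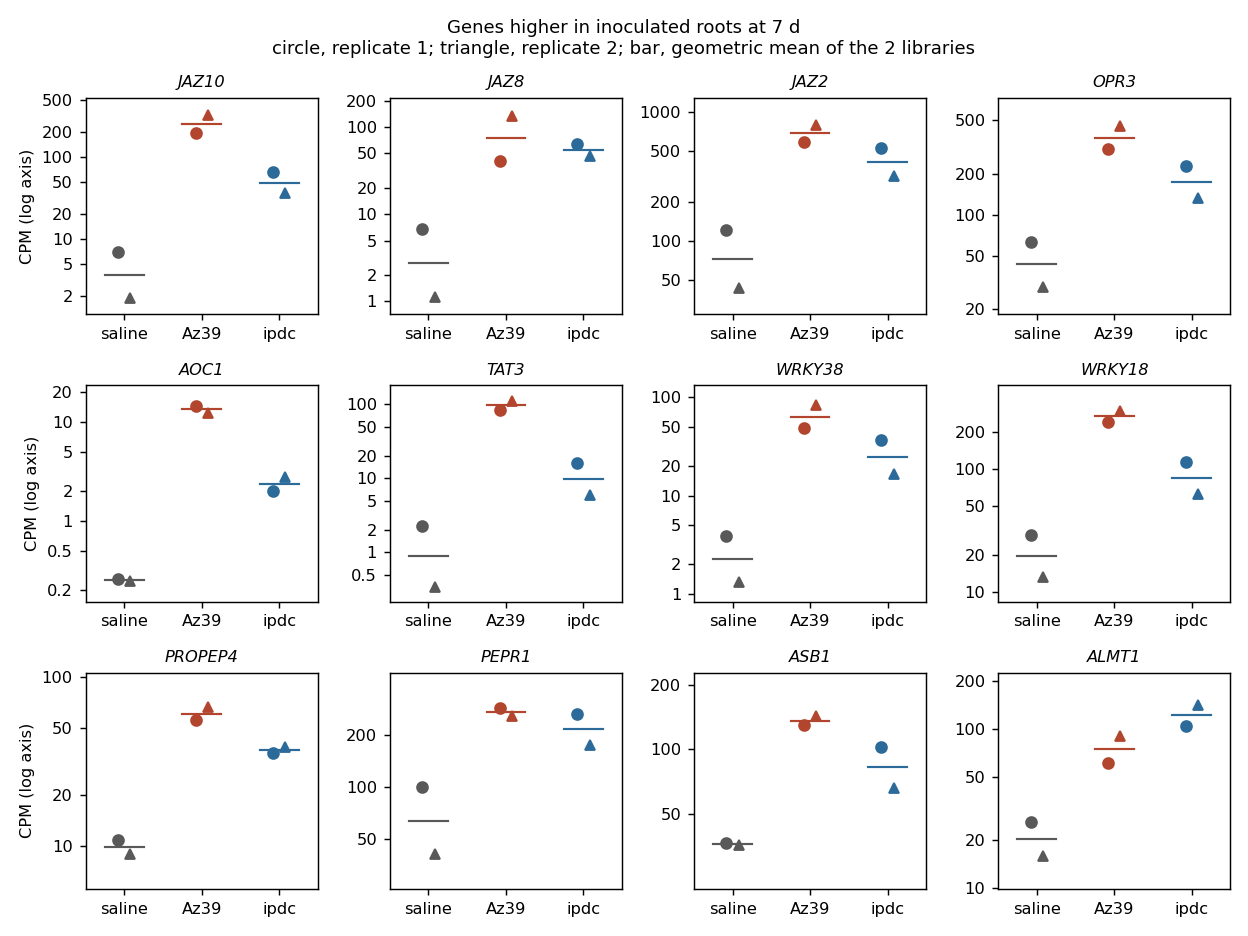
CPM per library (log axis) of 12 genes that rose, with the 2 saline, 2 Az39 and 2 ipdc libraries of 7 d as points and a bar at each group's geometric mean. In each panel all 4 inoculated libraries lie above both saline libraries.

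MYC factors bind the G-box, CACGTG, and the related AACGTG, so the promoters of 4 of the 9 jasmonate genes that rose are shown, the 3 that held a motif and 1 that did not, as the 250 bases before the annotated start, 5′ to 3′ on the gene's strand, from RefSeq TAIR10.1. Capitals mark CACGTG, or AACGTG read on the other strand as CACGTT. JAZ2 lies at chr1:28150447-28150696 on the minus strand, JAZ8 at chr1:10596102-10596351 on the plus strand, AOC1 at chr3:9403529-9403778 on the plus strand and JAZ10 at chr5:4218536-4218785 on the plus strand.
JAZ2: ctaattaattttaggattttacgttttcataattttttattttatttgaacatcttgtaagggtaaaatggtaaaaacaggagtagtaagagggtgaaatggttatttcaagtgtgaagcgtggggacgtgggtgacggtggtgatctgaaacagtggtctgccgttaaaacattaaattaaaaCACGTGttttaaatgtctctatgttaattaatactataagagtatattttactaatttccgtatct
JAZ8: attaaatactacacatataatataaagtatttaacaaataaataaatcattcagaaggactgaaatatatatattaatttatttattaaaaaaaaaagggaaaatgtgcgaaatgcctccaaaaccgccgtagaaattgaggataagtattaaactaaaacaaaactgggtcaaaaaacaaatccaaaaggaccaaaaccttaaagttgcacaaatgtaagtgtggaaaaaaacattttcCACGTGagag
AOC1: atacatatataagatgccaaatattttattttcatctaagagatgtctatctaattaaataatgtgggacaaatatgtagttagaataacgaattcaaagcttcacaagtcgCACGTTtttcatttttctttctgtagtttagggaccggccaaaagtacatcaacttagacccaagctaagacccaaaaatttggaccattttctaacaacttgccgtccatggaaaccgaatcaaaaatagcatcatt
JAZ10: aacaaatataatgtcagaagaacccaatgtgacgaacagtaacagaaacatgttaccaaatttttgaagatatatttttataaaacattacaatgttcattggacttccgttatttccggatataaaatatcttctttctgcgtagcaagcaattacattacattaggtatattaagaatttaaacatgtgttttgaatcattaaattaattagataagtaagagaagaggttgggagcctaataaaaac
The CACGTG began 66 bases before the start of JAZ2 and 10 bases before that of JAZ8, and the JAZ10 window held neither motif. Of the 9 windows, 2 held CACGTG, 1 held AACGTG and 6 held neither. In windows of 250 bases before and 50 after the start, searched on both strands, CACGTG was found in 22 of the 161 genes that rose (13.7%), 11 of the 168 that fell (6.55%) and 1720 of 18852 genes tested (9.12%). AACGTG was found in 29 (18%), 9 (5.36%) and 1726 (9.16%). The W-box forms TTGACC and TTGACT, which WRKY factors bind, were found in 19.9% and 32.9% of the genes that rose, 10.12% and 22.0% of those that fell and 14.5% and 21.8% of all. GCCGCC, bound by ERF factors, was found in 1.86%, 2.38% and 2.62%, and TGTCTC, bound by auxin response factors, in 16.8%, 14.9% and 13.7%. These are counts of letters and not binding sites, and no test was made on them.

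Some immune genes rose as well, among them genes of the Pep system. PROPEP4, a Pep precursor, was at 10.8 and 8.95 CPM in the saline libraries, 55.6 and 65.9 in the Az39 and 35.3 and 38.6 in the ipdc libraries. The Az39 libraries were the highest, the inoculated libraries did not overlap with saline, and the change was 2.26 ± 0.17 (adjusted p = 0.0025). PROPEP1 changed by 1.64 ± 0.33 (adjusted p = 0.0428). PEPR1, a receptor kinase that binds Pep peptides, was at 99.7 and 40.9 CPM in the saline libraries, 290.0 and 259 in the Az39 and 267 and 176 in the ipdc libraries, 1.81 ± 0.34 higher (adjusted p = 0.0372). Of the 6 PROPEP genes tested, a group chosen after values were seen, 2 rose, while PROPEP2 and PROPEP3 had changes of 1.94 ± 0.47 (adjusted p = 0.0685) and 1.7 ± 0.46 (adjusted p = 0.0872). In the list for pattern-triggered immunity, 28 genes were tested, of which 3 rose and 1 fell, against 0.853% and 0.89% of all genes. The list's median of 0.73 became 1.68 without saline replicate 1 and 0.16 without saline replicate 2. WRKY18, a factor induced by bacterial patterns, was at 29.3 and 13.4 CPM in the saline libraries, 240.4 and 299.7 in the Az39 and 115 and 62.7 in the ipdc libraries and changed by 2.86 ± 0.45 (adjusted p = 0.0246). WRKY11, known to restrain basal defence, fell by 0.90 ± 0.18 on the log2 scale (adjusted p = 0.0459). FRK1, a kinase widely used as a marker of pattern responses, was at 2.22 and 2.07 CPM in the saline libraries, 1.95 and 1.25 in the Az39 and 2.07 and 2.26 in the ipdc libraries, and its change of -0.20 ± 0.61 did not pass the test (adjusted p = 0.885).

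Of 21 salicylic acid genes, 2 rose, against 0.853% of all genes, and 0 fell, with a median of 0.70 that became 0.37 without ipdc replicate 1. WRKY38, a factor known to restrain salicylic acid defence, was at 3.87 and 1.33 CPM in the saline libraries, 49.0 and 82.9 in the Az39 and 36.5 and 16.6 in the ipdc libraries, 4.01 ± 0.55 higher (adjusted p = 0.0173). EDS5, which exports salicylic acid precursor from the plastid, changed by 1.43 ± 0.23 (adjusted p = 0.0246). PR1, the usual output marker, had no counts in 5 of the 6 libraries and 1 count in ipdc replicate 2, too few to test. Other signalling genes that rose, named after their values were seen, included MAPKKK21, a MAP kinase kinase kinase, with a change of 3.72 ± 0.67 (adjusted p = 0.0331), CNGC19, a calcium channel known from wounding and from herbivory, with a change of 3.53 ± 0.68 (adjusted p = 0.0395), the calcium sensor CBL1, with a change of 2.99 ± 0.47 (adjusted p = 0.0246), and PSK2, a precursor of the growth peptide phytosulfokine, with a change of 2.22 ± 0.42 (adjusted p = 0.0372).

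The largest rises included genes outside those lists. AT4G37710, a VQ motif protein listed as VQ29, was at 0.207 and 0.246 CPM in the saline libraries, 23.1 and 16.3 in the Az39 and 2.97 and 2.4 in the ipdc libraries, a change of 4.96 ± 0.54 (adjusted p = 0.00933). All ipdc values lay between those of saline and Az39. BHLH92, a bHLH factor, was at 2.01 and 0.197 CPM in the saline libraries, 41.5 and 48.7 in the Az39 and 25.2 and 13.2 in the ipdc libraries and changed by 4.74 ± 0.81 (adjusted p = 0.0286), which became 7.17 without saline replicate 1 and 3.86 without saline replicate 2. FAMT, which methylates farnesoic acid, and its neighbour and close copy AT3G44870 changed by 4.29 ± 0.82 (adjusted p = 0.0375) and 4.35 ± 0.67 (adjusted p = 0.0233), and reads may be split between them. The FAMT change became 6.53 without saline replicate 1 and 3.44 without saline replicate 2. AT1G20310, of unknown function, changed by 3.90 ± 0.81 (adjusted p = 0.0479). MSRB8, which repairs oxidised methionine, was at 2.43 and 0.886 CPM in the saline libraries, 16.4 and 87.6 in the Az39 and 45.7 and 24.5 in the ipdc libraries, 4.69 ± 0.85 higher (adjusted p = 0.0336). Of the 9 MSRB genes tested, a group chosen after values were seen, MSRB8, MSRB7 and MSRB9 rose. Among transcription factors, WRKY30 changed by 3.31 ± 0.64 (adjusted p = 0.0402), HRE2, an ERF of the hypoxia response, by 3.25 ± 0.57 (adjusted p = 0.0317), MYB108 by 2.61 ± 0.43 (adjusted p = 0.0271) and MYBR1 by 1.64 ± 0.31 (adjusted p = 0.0373). HRE2 was the only one of 13 hypoxia genes to rise. Of 61 WRKY genes tested 4 rose and 3 fell, of 86 MYB genes 2 rose and 0 fell, and of 66 NAC genes 1, NAC3, fell, by 1.25 ± 0.24 (adjusted p = 0.0375). Of all genes tested, 0.853% rose and 0.89% fell.

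Genes at the head of tryptophan synthesis rose. Of 18 genes of tryptophan and auxin synthesis 3 rose and 0 fell, against 0.853% and 0.89% of all genes. ASB1, the beta subunit of anthranilate synthase, the committed step to tryptophan, was at 36.5 and 35.8 CPM in the saline libraries, 129.6 and 142 in the Az39 and 103 and 66.2 in the ipdc libraries. The groups did not overlap and the change was 1.57 ± 0.20 (adjusted p = 0.0137). ASA1, its alpha subunit, changed by 1.36 ± 0.25 (adjusted p = 0.0338). YUC3, a flavin monooxygenase that makes auxin, changed by 0.97 ± 0.20 (adjusted p = 0.045), while YUC6, of the same family but named after its value was seen, fell by 1.52 ± 0.22 (adjusted p = 0.0206). From tryptophan the root also makes indole glucosinolates and camalexin, and 2 of 21 such genes rose. These were IGMT2, an indole glucosinolate methyltransferase whose tandem copies may share its reads, with a change of 1.54 ± 0.25 (adjusted p = 0.0246), and GGP1, a gamma-glutamyl peptidase, with a change of 1.05 ± 0.22 (adjusted p = 0.0485). CYP71A12, of the camalexin branch, had a change of -0.41 ± 0.75 that did not pass (adjusted p = 0.802).

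Of 29 auxin response genes tested, 1 rose, against 0.853% of all genes, and 0 fell, with a median of 0.07 that became -0.06 without saline replicate 2. The gene that rose was GH3.2, which conjugates auxin to amino acids, at 17.1 and 18.8 CPM in the saline libraries, 23.65 and 30.5 in the Az39 and 80.4 and 52.8 in the ipdc libraries. Its ipdc libraries were the higher of the inoculated ones, and the change was 1.24 ± 0.22 (adjusted p = 0.0312). GH3.3 was at 9.04 and 4.58 CPM in the saline libraries, 19.6 and 31.3 in the Az39 and 21.3 and 12.5 in the ipdc libraries, and its change of 1.61 ± 0.53 did not pass (adjusted p = 0.141). IAA19, the lateral root factor LBD16 and the mitotic cyclin CYCB1;1 had changes of 0.85 ± 0.19 (adjusted p = 0.0584), -0.25 ± 0.32 (adjusted p = 0.699) and 0.45 ± 0.23 (adjusted p = 0.315) and did not pass either. Of 16 auxin transport genes only ABCB21, an auxin carrier, rose, with a change of 1.33 ± 0.25 (adjusted p = 0.0372), and ABCB11, of the same family, fell by 1.09 ± 0.20 (adjusted p = 0.0372), named after its value was seen. Of 18 lateral root genes only XTH23, a wall enzyme, rose, with a change of 1.99 ± 0.38 (adjusted p = 0.0385). Of 16 root hair genes only CPC, a small MYB protein that promotes hair cell fate, rose, with a change of 1.29 ± 0.27 (adjusted p = 0.0476). Of 29 cell cycle genes only SIM, an inhibitor that turns cells to endoreduplication, changed, and it fell by 1.09 ± 0.20 (adjusted p = 0.0372).

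ALMT1, the malate channel of the root, was at 26.0 and 15.8 CPM in the saline libraries, 60.9 and 90.3 in the Az39 and 105 and 141 in the ipdc libraries. Levels with both strains lay well apart from saline, with a change of 2.2 ± 0.27 (adjusted p = 0.0125). A wall enzyme, XTH18, changed by 1.83 ± 0.36 (adjusted p = 0.0428), and the beta-glucosidase BGLU15 by 0.81 ± 0.14 (adjusted p = 0.032). The glucosinolate transporter GTR1, named after its value was seen, changed by 2.36 ± 0.36 (adjusted p = 0.0232).

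Several genes of nutrient uptake fell. Of 23 nitrogen genes tested, 4 fell and 0 rose, against 0.89% of all genes, and the list's median was -0.27, which became -0.13 without Az39 replicate 1 and -0.63 without Az39 replicate 2. AMT1;1, a main ammonium uptake transporter, was at 156 and 122 CPM in the saline libraries, 44.9 and 56.0 in the Az39 and 64.7 and 51.4 in the ipdc libraries. The inoculated libraries lay below both saline libraries, and the change was -1.36 ± 0.23 (adjusted p = 0.0289). AMT1;3, another ammonium transporter, was at 131 and 142 CPM in the saline libraries, 24.5 and 55.0 in the Az39 and 59.7 and 48.1 in the ipdc libraries, a change of -1.56 ± 0.30 (adjusted p = 0.0372). NRT1.2, a low-affinity nitrate transporter, changed by -0.99 ± 0.20 (adjusted p = 0.0464). NRT3.1, the partner that high-affinity nitrate transporters need, changed by -1.75 ± 0.37 (adjusted p = 0.0499). NRT2.1, the main high-affinity nitrate transporter, was at 12 and 7.97 CPM in the saline libraries, 1.59 and 4.81 in the Az39 and 1.23 and 2.12 in the ipdc libraries, and its change of -2.11 ± 0.62 did not pass the test (adjusted p = 0.109). The nitrogen genes together took 0.854% and 0.765% of counts in the saline libraries, 0.418% and 0.568% in the Az39 and 0.627% and 0.574% in the ipdc libraries. In RNA from whole roots, fewer cells of a type and less RNA per cell cannot be told apart. The root cell type markers summed to 1.09% and 1.21% of counts in the saline libraries, 0.551% and 0.900% in the Az39 and 0.733% and 0.742% in the ipdc libraries. Most of that sum was PYK10, so the share that moved with these falls was largely that of PYK10. Of the 14 markers, 0 passed the test, and 4 had a log2 fold change above 0, against 54.8% of all genes tested. All inoculated libraries lay below saline for 5 of them and above saline for 1, against 15.3% and 17.8% of all genes. The part of cell types in these falls was not tested.

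Of 23 phosphate genes, 2 fell, against 0.89% of all genes, and 0 rose. PHT1;2, a phosphate uptake transporter, was at 7.28 and 9.69 CPM in the saline libraries, 1.24 and 3.87 in the Az39 and 2.13 and 1.30 in the ipdc libraries, a change of -2.02 ± 0.40 (adjusted p = 0.0423). Its close copy PHT1;1 may share its reads, and its change of -1.34 ± 0.34 did not pass the test (adjusted p = 0.0767). PHO1, which loads phosphate into the xylem, changed by -0.94 ± 0.19 (adjusted p = 0.0462). Of the 12 ZIP metal transporters tested, a group chosen after values were seen, 4 fell and 0 rose. These were ZIP5 with a change of -1.76 ± 0.28 (adjusted p = 0.0246), ZIP2 with a change of -1.55 ± 0.27 (adjusted p = 0.0317), ZIP3 with a change of -1.55 ± 0.23 (adjusted p = 0.0231) and IRT3 with a change of -1.02 ± 0.20 (adjusted p = 0.0444). In the iron list 19 genes were tested and 0 passed, with a median of -0.38 that became -0.67 without ipdc replicate 2. IRT1, the main iron uptake transporter, was at 60.7 and 69.3 CPM in the saline libraries, 20.1 and 21.3 in the Az39 and 21.9 and 54.7 in the ipdc libraries, a change of -1.21 ± 0.30 (adjusted p = 0.0726). FRU, the bHLH factor that switches on iron uptake, fell by 1.19 ± 0.17 (adjusted p = 0.0173). It was entered in the iron list as FIT and is not among the 19. Entries whose symbol matched neither the RefSeq symbol nor a RefSeq synonym were left out. With the 4 tested entries left out in this way, 1 of 23 iron genes fell and the median was -0.36. Ion transporters that fell, named after their values were seen, were the molybdate transporter MOT1, with a change of -2.38 ± 0.48 (adjusted p = 0.0439), the boron exporter BOR1, with a change of -1.29 ± 0.24 (adjusted p = 0.0372), the potassium channel SKOR, which loads the xylem, with a change of -1.43 ± 0.24 (adjusted p = 0.0272), and the anion channel SLAH3, with a change of -0.94 ± 0.19 (adjusted p = 0.0444).

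Some genes of amino acid export fell too. Of 32 UMAMIT exporters tested 4 fell and 0 rose, and of 5 glutamine dumpers, small membrane proteins that stimulate amino acid export, 2 fell and 0 rose, both groups being chosen after values were seen. GDU1 was at 52.7 and 57.3 CPM in the saline libraries, 15 and 17.8 in the Az39 and 20.7 and 23.7 in the ipdc libraries, a change of -1.53 ± 0.17 (adjusted p = 0.00933), and UMAMIT11 changed by -1.38 ± 0.19 (adjusted p = 0.0173). In the glutamine dumpers all 5 genes lay below saline in every inoculated library, as did 15.3% of all genes.

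Some water channels fell as well. Of 20 aquaporins, 3 fell, against 0.89% of all genes, and 0 rose. A log2 fold change above 0 was found for 5, against 54.8% of all genes tested, and the median was -0.58. TIP2;2, a channel of the vacuole membrane, was at 635 and 631 CPM in the saline libraries, 215 and 329 in the Az39 and 282 and 250.1 in the ipdc libraries, a change of -1.24 ± 0.21 (adjusted p = 0.0286). TIP2;3 was at 172 and 252 CPM in the saline libraries, 57.1 and 99.1 in the Az39 and 84.1 and 67.9 in the ipdc libraries, -1.46 ± 0.27 (adjusted p = 0.0372), and PIP2;4, of the plasma membrane, changed by -1.15 ± 0.23 (adjusted p = 0.0452). Together the aquaporins took 0.955% and 1.01% of counts in the saline libraries, 0.527% and 0.545% in the Az39 and 0.624% and 0.664% in the ipdc libraries. Among 15 genes of sugar starvation and transport, 0 had a log2 fold change above 0 and 2 fell. SEN1, induced by darkness and sugar starvation, was at 18.4 and 15.15 CPM in the saline libraries, 1.71 and 3.5 in the Az39 and 4.13 and 6.37 in the ipdc libraries, a change of -2.18 ± 0.46 (adjusted p = 0.0493). BGAL4, a beta-galactosidase, changed by -1.2 ± 0.23 (adjusted p = 0.0383).

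**Figure D4:**
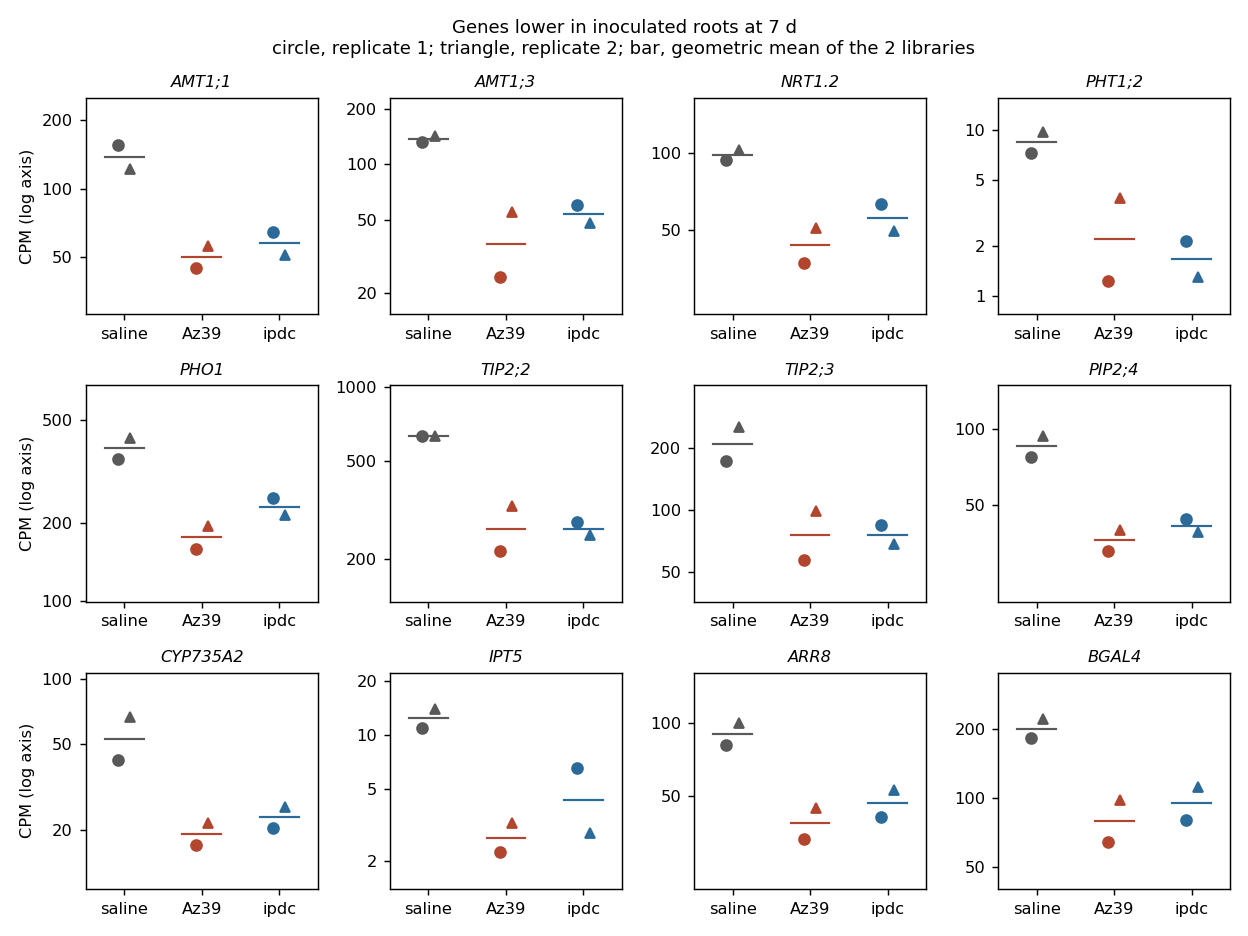
CPM per library (log axis) of 12 genes that fell, with the 2 saline, 2 Az39 and 2 ipdc libraries of 7 d as points and a bar at each group's geometric mean. In each panel all 4 inoculated libraries lie below both saline libraries.

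Among cytokinin genes 3 of 21 fell, against 0.89% of all genes, and 0 rose. A log2 fold change above 0 was found for 3, against 54.8% of all genes tested, and the median was -0.47. IPT5, which makes the first cytokinin precursors, was at 11.0 and 13.9 CPM in the saline libraries, 2.24 and 3.25 in the Az39 and 6.59 and 2.88 in the ipdc libraries, a change of -1.79 ± 0.35 (adjusted p = 0.0398). CYP735A2, which hydroxylates them to trans-zeatin forms, was at 42.2 and 67.0 CPM in the saline libraries, 17.2 and 21.7 in the Az39 and 20.5 and 25.7 in the ipdc libraries, -1.37 ± 0.26 (adjusted p = 0.0372). ARR8, a type-A response regulator, changed by -1.07 ± 0.19 (adjusted p = 0.0331). ABCG14, which exports cytokinin to the shoot, was the 1 gene of 29 ABCG transporters that changed, with a change of -1.15 ± 0.21 (adjusted p = 0.0372). The purine permease PUP4 and the receptor-like histidine kinase HK1, an osmosensor, fell by 1.13 ± 0.16 (adjusted p = 0.0183) and 1.49 ± 0.19 (adjusted p = 0.0158), and both were named after their values were seen.

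Of 13 circadian clock genes, 3 fell, against 0.89% of all genes, and 0 rose, with a median of -0.39. PRR5, an evening repressor, was at 62.5 and 69.0 CPM in the saline libraries, 23.1 and 28.6 in the Az39 and 27.2 and 32.9 in the ipdc libraries, a change of -1.24 ± 0.16 (adjusted p = 0.0167). ELF4 and ELF3, of the evening complex, changed by -0.95 ± 0.17 (adjusted p = 0.0329) and -0.67 ± 0.14 (adjusted p = 0.049). The hour of harvest is not given in the sources used here, and its part in these values was not tested.

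Among the largest falls, AT5G48430, an aspartyl protease, was at 87.3 and 99.4 CPM in the saline libraries, 9.08 and 18.5 in the Az39 and 23.8 and 11.9 in the ipdc libraries, a change of -2.57 ± 0.32 (adjusted p = 0.0125). AT2G45360 fell by 2.14 ± 0.36 (adjusted p = 0.0284), AT2G28710, a zinc finger protein, by 2.12 ± 0.37 (adjusted p = 0.0297), and AT2G19060, an SGNH hydrolase, by 2.04 ± 0.24 (adjusted p = 0.0115). FLA13, a fasciclin-like arabinogalactan protein of the cell wall, fell by 1.94 ± 0.23 (adjusted p = 0.0115). The RING proteins AT1G49230 and AT4G40070 fell by 1.92 ± 0.21 (adjusted p = 0.00933) and 1.87 ± 0.35 (adjusted p = 0.0372). AT5G56100, AT3G59930 (a defensin-like gene) and GLTP2 fell by 1.84 ± 0.35 (adjusted p = 0.0372), 1.84 ± 0.34 (adjusted p = 0.0372) and 1.83 ± 0.28 (adjusted p = 0.0232). Of 150 cytochrome P450 genes tested 5 fell, against 0.89% of all genes, and 0 rose. Those that fell included CYP72A15 with a change of -0.96 ± 0.19 (adjusted p = 0.0398) and CYP71B2 with a change of -1.23 ± 0.25 (adjusted p = 0.045). Of 31 SAUR genes 2 fell, SAUR36 by 1.68 ± 0.26 (adjusted p = 0.024) and AT2G36210 by 1.56 ± 0.32 (adjusted p = 0.0464). EXPA4, an expansin that loosens walls, fell by 0.90 ± 0.18 (adjusted p = 0.0439), UGT73B1 by 1.17 ± 0.24 (adjusted p = 0.0481) and AT1G73120 by 1.47 ± 0.24 (adjusted p = 0.0256). Receptor kinases that fell, named after their values were seen, were CLV1 with a change of -1.18 ± 0.17 (adjusted p = 0.0193) and BAM3 with a change of -0.96 ± 0.13 (adjusted p = 0.0173), which perceive CLE peptides, and PSY1R with a change of -1.39 ± 0.27 (adjusted p = 0.0421), a receptor of a growth peptide.

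In 15 of the lists and families no gene passed the test, leaving aside FRU for iron. They were aliphatic glucosinolates, ER bodies, ethylene, abscisic acid, iron, xylem secondary wall, suberin and Casparian strip, flavonoids, triterpene clusters, heat shock, photosynthesis, seed storage, root cell types, plant defensins and SWEET sugar transporters. PYK10, the ER body beta-glucosidase, was at 10211 and 11180.4 CPM in the saline libraries, 5322 and 9165 in the Az39 and 7010.2 and 6905 in the ipdc libraries, and its change of -0.59 ± 0.21 did not pass (adjusted p = 0.158). Of the 14 xylem wall genes 1 had a log2 fold change above 0, and of the 28 photosynthesis genes 27 did, against 54.8% of all genes. The photosynthesis median of 0.45 became -0.11 without ipdc replicate 2, which held the 0.347% share, and in 0 of the 28 genes did all inoculated libraries lie above saline. The seed storage median of -1.54 became 2.45 without saline replicate 1, and the heat shock median of -0.11 became 1.33.

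**Figure D5:**
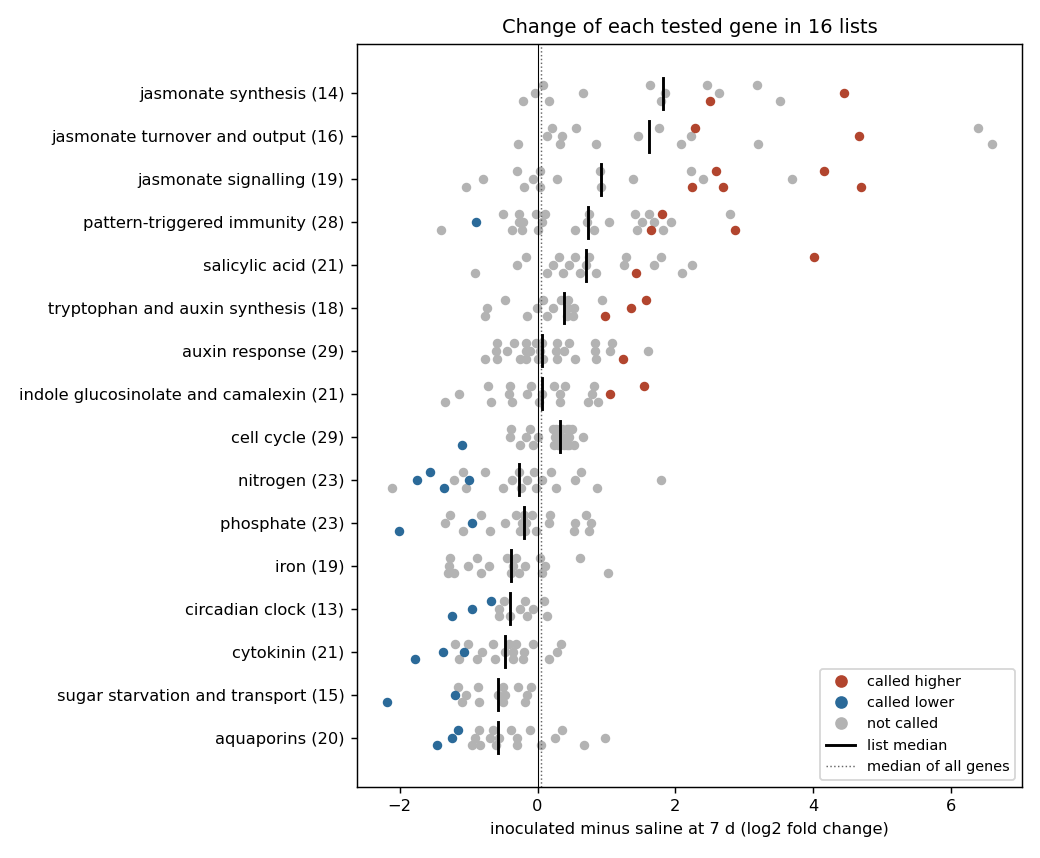
Log2 fold change (inoculated against saline at 7 d) of each tested gene in 16 lists, 1 point per gene, with genes that passed the test in colour and a bar at each list's median. The jasmonate lists lie mostly above 0, and the cytokinin, aquaporin and sugar lists mostly below.

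The strains themselves differed at 22 genes (0.117%), all higher with Az39 and 0 lower by edgeR, while DESeq2 called 152 higher and 29 lower. Of the 22 genes, 12 were among the 161 that rose in the pooled comparison. This contrast did not use the saline libraries. GSTU5, a glutathione transferase, was at 18.6 and 9.64 CPM in the saline libraries, 244 and 257 in the Az39 and 26.4 and 24.5 in the ipdc libraries. Its ipdc libraries lay near saline and its Az39 libraries far above, a strain difference of 3.3 ± 0.29 (adjusted p = 0.0048). Its neighbour GSTU6, which may share reads with it, was at 13.0 and 14 CPM in the saline libraries, 178 and 133 in the Az39 and 24.1 and 17.9 in the ipdc libraries, and the strains differed by 2.89 ± 0.23 (adjusted p = 0.0043). ABR1, an ERF factor of abscisic acid and wound responses, was at 1.76 and 1.48 CPM in the saline libraries, 26.7 and 14 in the Az39 and 2.78 and 1.92 in the ipdc libraries, a strain difference of 3.11 ± 0.41 (adjusted p = 0.0314). MGD1, which makes the galactolipid of plastid membranes, was at 20.1 and 20.2 CPM in the saline libraries, 114 and 115 in the Az39 and 34.8 and 30.8 in the ipdc libraries, with a difference of 1.8 ± 0.21 (adjusted p = 0.0249). AT4G25433, a LysM domain protein, was at 0.310 and 0.492 CPM in the saline libraries, 12 and 12.6 in the Az39 and 0.646 and 0.754 in the ipdc libraries, with a difference of 4.12 ± 0.44 (adjusted p = 0.0185). For these genes the pooled rise came largely from Az39. AT3G62010, the bHLH gene AT4G29930 and the methylesterase gene MES5 differed by 2.07 ± 0.26 (adjusted p = 0.0313), 2.16 ± 0.28 (adjusted p = 0.0314) and 1.30 ± 0.18 (adjusted p = 0.0327). For JAZ10 the strain difference of 2.36 ± 0.53 did not pass the test (adjusted p = 0.249), nor did that of GH3.2 at -1.30 ± 0.24 (adjusted p = 0.123). The auxin response genes IAA2 and IAA18, named after their values were seen, were among the 22 and not called in the pooled comparison. Their strain differences were 1.57 ± 0.20 (adjusted p = 0.0314) and 1.25 ± 0.17 (adjusted p = 0.0327). The count of 22 fell to 0 without ipdc replicate 2, to 3 without ipdc replicate 1, to 2 without Az39 replicate 1 and to 6 without Az39 replicate 2. It was 6 without either saline replicate of 24 h and 2 without either Az39 replicate of 24 h.

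The response at 7 d was also set against that at 24 h, for which separate saline libraries were taken. At 24 h no gene passed an adjusted p of 0.05 by edgeR, with 1244 genes at an unadjusted p under 0.05, 117 genes called by DESeq2 and 0 by limma-voom. Of the 161 genes that rose at 7 d, 99 had the same direction at 24 h, and of the 168 that fell, 105. Their median changes in that direction were 0.05 and 0.09 on the log2 scale. No matching share over all genes tested was taken, so these counts show neither agreement nor its lack. The 24 h response also includes the ipdc libraries set apart by their seed storage and photosynthesis transcripts. The responses at the time points differed at 2 genes (0.0106%), 1 in each direction (0.0053%). PROPEP4 responded more at 7 d, by 2.17 ± 0.22 (adjusted p = 0.02), its change at 24 h being 0.08 ± 0.16. AT5G24490, a ribosomal protein gene, had changes of opposite sign, 0.95 ± 0.12 at 24 h and -0.73 ± 0.11 at 7 d. Its response at 7 d minus that at 24 h was -1.69 ± 0.17 (adjusted p = 0.02). The count was 155 without ipdc replicate 2 of 24 h, 13 without ipdc replicate 1 of 24 h and 11 without saline replicate 1 of 7 d. It was 2 without Az39 replicate 1 of 7 d, and 0 without any of the other 8 libraries left out in turn.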

How the data were processed

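Whole roots were sequenced in 12 libraries of 6 groups, and the 6 libraries of 7 d are described here. The deposited values were counts of reads per gene, with no normalization in the file. Reads were aligned with HISAT2 2.2.1 and counted with featureCounts on TAIR10, per the submitters' processing notes. The kit named in the labels does not mark strand, so reads of overlapping genes cannot be told apart. Of the 21200 genes, 469 had no count. Symbols came from RefSeq TAIR10.1, which matched 21120 IDs, and its start sites and genome gave the promoter windows.

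Counts were filtered with filterByExpr (minimum count 10, minimum total 15, proportion 0.7), scaled by TMM and fitted in edgeR 4.0.16 (R 4.3.3) with 1 mean per group over all 12 libraries, leaving 6 residual degrees of freedom and a biological coefficient of variation of 24.5%. The quasi-likelihood test was two-sided, with Benjamini-Hochberg adjustment over the 18867 genes tested and a threshold of 0.05. The response is the mean of the Az39 and ipdc group means minus the saline mean, in log2 units with a prior count of 0.125. Standard errors are the fold change divided by the root of the F statistic, and CPM values are TMM-scaled. The labels call the replicates biological but do not say whether plates or bacterial cultures were shared. The p-values therefore measure only the spread between the 2 libraries of a group, pooled over all 6 groups, 24 h included. Alternatives were limma-voom (limma 3.58.1), DESeq2 1.42.0, other scalings and filters, a replicate term, and libraries left out, of which leaving out 24 h libraries for the contrasts within 7 d was chosen after seeing the data. On simulated counts with 100 genes changed by 1.5 and 100 by 3 on the log2 scale in this contrast, edgeR found 77% and 99%, with 14 false calls among 18810 genes. Only genes with many counts were changed there, and no simulated library was set apart from the rest. The simulation therefore does not cover genes at few counts or libraries like those of ipdc at 24 h.

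Genes named by rule were the 12 largest changes each way at a mean log2 CPM of at least 1 with groups apart, up to 3 changed genes per list or family with the smallest adjusted p, up to 6 each for the strain and time contrasts, and a panel of 12 genes. The comparison, its lists and its families were chosen with earlier results of these data known. The ZIP, UMAMIT, glutamine dumper, MSRB and PROPEP families were added after values were seen, and list members that missed the threshold were also named with their values known. List entries whose symbol matched neither the RefSeq symbol nor a RefSeq synonym of the gene were left out of every list count and median. There were 20, of which 18 were tested and 1, FRU, passed. A gene with 3 counts or fewer in a compared group got no fold change.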

Additional observations from a re-analysis of the deposited data

Results flagged for a closer look

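Genes called in the pooled comparison whose levels differed between the strains at 7 d, by the test of Az39 minus ipdc, were GSTU5 (3.3), ABR1 (3.11), GSTU6 (2.89), MGD1 (1.8), AT4G25433 (4.12), AT3G62010 (2.07), AT4G29930 (2.16) and MES5 (1.3), all as log2 differences with Az39 the higher. Each lay higher in both Az39 libraries than in both ipdc libraries. Genes whose response differed between 7 d and 24 h were PROPEP4, by 2.17 on the log2 scale, and AT5G24490, by -1.69. These 2 were no longer called without both ipdc libraries of 24 h. That setting compared both strains at 7 d with Az39 alone at 24 h, so it is a different contrast.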

How the results depend on the processing

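The number of genes called was the value that moved most. For inoculated against saline roots at 7 d it was 329 with edgeR, 1413 with DESeq2 and 569 with limma-voom. Testing against a 1.5-fold change left 23, treating the 4 inoculated libraries as 1 group left 86, and the Az39 libraries alone gave 696 and the ipdc libraries alone 3. Leaving out single libraries gave 0 to 609. With 0 genes called, 2052 still had an unadjusted p under 0.05. The strain difference was called at 22 genes with edgeR, 181 with DESeq2, 35 with limma-voom and 3 against a 1.5-fold change, and at 0 to 26 with single libraries left out. The difference between 7 d and 24 h was called at 2 genes with edgeR, 413 with DESeq2, 0 against a 1.5-fold change (1058 at an unadjusted p under 0.05) and 0 without both ipdc libraries of 24 h (2022 unadjusted), and at 0 to 155 with single libraries left out. Without both ipdc libraries of 24 h, both strains at 7 d were set against Az39 alone at 24 h, which is a different contrast. Where a single library was left out, the lone library of its group was assumed to vary like the others. The cause of these moves was not tested, except that fewer libraries leave fewer residual degrees of freedom. RLE scaling, no filter and a filter of 1 CPM gave counts within 1.5 times those reported for the response to inoculation, and no named gene that passed the test changed direction under the alternatives run. The 7 d libraries alone gave 424 genes, 134 higher and 290 lower.

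Replicate numbers did not pair the libraries: at 7 d the correlations of same-numbered deviations were -0.08 (saline and Az39), 0.12 (saline and ipdc) and -0.07 (Az39 and ipdc). With a replicate block within each time, 163 genes were called for inoculation, 4 for the strain difference and 0 for the difference between times (2303 at an unadjusted p under 0.05). Library totals at 7 d were 14141640 counts or more, and genes at a few counts with saline, such as AT4G37710 and AOC1, have folds that rest on those few reads.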

Other observations

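Some genes called in the pooled comparison belong to none of the lists. Those given here were picked one by one after their values were seen, and stand for no group. Among those that rose were RABA1c (0.72 ± 0.13 in log2 fold change, adjusted p = 0.0331), RABA1g (0.88 ± 0.17 in log2 fold change, adjusted p = 0.0398) and RABG3d (0.84 ± 0.17 in log2 fold change, adjusted p = 0.0428), each a small GTPase. EXLA1 (1.59 ± 0.25 in log2 fold change, adjusted p = 0.0246) and EXLA2 (1.68 ± 0.30 in log2 fold change, adjusted p = 0.0331), expansin-like genes, also rose. FAD7 (1.49 ± 0.25 in log2 fold change, adjusted p = 0.0272), a plastid desaturase that supplies the fatty acid from which jasmonate is made, rose, and so did LAC8 (2.22 ± 0.41 in log2 fold change, adjusted p = 0.0372), a laccase. FRA8 (-1.59 ± 0.28 in log2 fold change, adjusted p = 0.032), a glycosyltransferase gene of xylan synthesis, fell. ACL5 (-0.73 ± 0.13 in log2 fold change, adjusted p = 0.0331), which makes thermospermine, fell. CVP2 (-0.88 ± 0.18 in log2 fold change, adjusted p = 0.0428), a phosphatase of vein formation, and XIP1 (-1 ± 0.20 in log2 fold change, adjusted p = 0.0408), a receptor kinase, fell as well.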
